A study of Rattus norvegicus with 3 samples.

Results

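The 7 genes described here, Gabra2, Gabra3, Gabra4, Gabra5, Gabrb1, Gabrb2 and Gabrd, encode subunits of the GABA-A receptor and were taken by gene symbol from the 30957 genes listed in the files. Each symbol stood on 1 row. The files also list 12 other subunit genes of this receptor, which are used below as a denominator and for comparison. Expression was measured by mRNA sequencing of motor cortex from 3 male Sprague-Dawley rats, numbers 19, 35 and 70. All had undergone cerebral ischemia, an interruption of the blood supply to the brain, with reperfusion, its return. Their time label is 8 weeks, with no statement of whether that is age or time since the operation. The rats form 1 group, and no untreated or sham group was analysed here, so that the comparisons are between subunits and between animals, with no test of the operation itself. Each rat is 1 library, and the p-values below ask only whether a difference between a pair of genes is consistent over these 3 rats.

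The GABA-A receptor is a chloride channel opened by GABA, the main inhibitory transmitter of the adult cortex. Each channel is a ring of subunits drawn from several classes, and the combination sets where the receptor sits and how it responds. Alpha and beta subunits form the GABA binding sites. The alpha2 and alpha3 subunits are found mainly in receptors at synapses, while alpha4 with delta, and many alpha5 receptors, lie outside synapses and carry a slow tonic inhibition. Beta subunits are needed for assembly and surface delivery. In rodent forebrain, alpha4 and delta transcripts are abundant in thalamus, dentate gyrus and striatum, alpha5 in hippocampus, and alpha3 in deep cortical layers.

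In the deposited coordinates, which are on the Rnor 6.0 build, 3 of the 7 genes lie in 1 cluster on chromosome 14. Gabrb1 (38643385 to 39112600, minus strand) and Gabra4 (39154529 to 39231695, plus strand) face away from each other across a gap of 41928 bp, and Gabra2 (39661968 to 39798302, plus strand) follows after a further 430272 bp. Gabra5 is on chromosome 1 (112833975 to 112947173, minus strand), Gabrb2 on chromosome 10 (27973681 to 28187565, plus strand), Gabrd on chromosome 5 (172797450 to 172809353, minus strand) and Gabra3 on chromosome X (152414615 to 152642531, minus strand). The number of overlapping genes in the files was 0 for each of the 7, so that no fragments were shared with an overlapping or antisense row.

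RefSeq promoter sequences (build GRCr8, 250 bases before to 50 after the start site) were matched by symbol for 6 of the 7 genes. Gabra2 was not among them. Gabra5, Gabrd and Gabra4 held 76.3%, 73.7% and 70.7% G and C, with 42, 40 and 35 CpG dinucleotides, and Gabrb1, Gabrb2 and Gabra3 held 49.3%, 44.0% and 39.3%, with 11, 9 and 0. The median over 33469 promoters of this length was 51.7% and 7 CpG, so that Gabrb1 was near the median in G and C and both beta genes were above it in CpG. The promoters of 4 genes are shown because the results below turn on these genes. These are Gabrd and Gabrb2, which differed most between rats 19 and 70, Gabra3, which had the opposite order, and Gabrb1, which differed least. Capitals mark matches to the motifs searched, on either strand, and in Gabrb1 and Gabrb2 also every run of 10 or more bases that both promoters share on the same strand.
Gabrd (chr5:171252660-171252959, minus strand): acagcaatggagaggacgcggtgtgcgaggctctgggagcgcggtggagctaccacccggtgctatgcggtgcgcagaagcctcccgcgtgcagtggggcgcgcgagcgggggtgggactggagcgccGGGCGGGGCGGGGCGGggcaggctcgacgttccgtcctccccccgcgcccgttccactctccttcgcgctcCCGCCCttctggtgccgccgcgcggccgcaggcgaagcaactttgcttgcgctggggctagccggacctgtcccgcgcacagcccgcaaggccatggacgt
Gabrb2 (chr10:27439543-27439842, plus strand): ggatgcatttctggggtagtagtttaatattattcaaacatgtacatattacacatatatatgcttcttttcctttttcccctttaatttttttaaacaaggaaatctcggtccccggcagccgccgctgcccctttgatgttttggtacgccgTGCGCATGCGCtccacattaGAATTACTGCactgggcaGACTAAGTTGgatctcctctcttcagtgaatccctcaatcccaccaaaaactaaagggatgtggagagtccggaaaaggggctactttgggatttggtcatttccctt
Gabrb1 (chr14:36902844-36903143, minus strand): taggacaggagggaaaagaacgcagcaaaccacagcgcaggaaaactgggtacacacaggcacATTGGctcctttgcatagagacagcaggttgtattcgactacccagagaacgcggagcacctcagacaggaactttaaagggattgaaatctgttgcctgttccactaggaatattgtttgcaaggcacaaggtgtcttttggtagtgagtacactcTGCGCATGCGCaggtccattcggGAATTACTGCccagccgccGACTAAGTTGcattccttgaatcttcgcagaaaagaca
Gabra3 (chrX:155543821-155544120, minus strand): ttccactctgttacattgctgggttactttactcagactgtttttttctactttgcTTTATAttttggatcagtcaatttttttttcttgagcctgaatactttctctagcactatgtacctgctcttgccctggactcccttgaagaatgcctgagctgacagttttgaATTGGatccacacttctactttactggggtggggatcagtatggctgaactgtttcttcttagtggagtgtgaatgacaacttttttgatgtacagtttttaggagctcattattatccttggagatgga

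The motifs searched were the GC box GGGCGG (in 33.1% of all promoters of this length), the TATA box TATAAA (14.2%), the CCAAT box CCAAT (37.5%), the cyclic AMP response element TGACGTCA (1.83%), the E-box CACGTG (6.42%), the EGR site GCGTGGGCG (0.544%) and the NRF1 site GCGCATGCG (1.52%). Gabrd held 4 GC boxes, 3 of them overlapping in a row, and Gabra4 and Gabra5 held 1 each. Gabra3 held 1 TATAAA match, on the opposite strand and at -194 from the start site, and 1 CCAAT match. Gabrb1 held 1 CCAAT match. The NRF1 letters stood in Gabrb1 and in Gabrb2, where the site reads the same on both strands over most of its length and so gives 2 overlapping matches. These 2 promoters shared 3 runs of 10 or more bases, in the same order. They began at -30, -7 and 12 in Gabrb1 and at -96, -76 and -58 in Gabrb2, counted from the start site. The other 14 pairs of the 6 promoters shared between 0 and 2 such runs. The shared runs were noticed after the sequences were seen. A match is a description of the letters and not evidence that a factor binds.

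Levels are given in FPKM, a fragment count scaled to 1000 bp of gene and to 1000000 fragments of library, so that genes of different length can be compared. Depth read from the low values corresponded to 15560000, 16460000 and 16050000 fragments in rats 19, 35 and 70, so that 1 FPKM on a gene of 1000 bp rests on about 16 fragments. For each of the 7 genes a length was found that turned all 3 values into whole fragments within 0.005. It is the shortest such length, so the fragment numbers and the 95% intervals built on them are for that length and cover counting error only. The authors normalized their counts before deriving FPKM, so these fragment numbers are on the normalized scale and may differ from the raw counts.

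Gabra2 had the highest mean of the 7, at 29.7, 3.49 and 36.6 FPKM in rats 19, 35 and 70 (23.3 ± 17.5, SD, n = 3). Rats 19 and 70 were close to each other and rat 35 was far below both. Gabra4 was at 16.3, 1.20 and 37.2 FPKM (18.2 ± 18.1, SD, n = 3), and Gabra5 at 13.2, 0.615 and 37.2 FPKM (17.0 ± 18.6, SD, n = 3). Both alpha subunits of extrasynaptic receptors were thus highest in rat 70, intermediate in rat 19 and lowest in rat 35. Gabra3 was the exception among the 7, at 14.6, 0.312 and 7.83 FPKM (7.57 ± 7.13, SD, n = 3), with its highest value in rat 19.

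Of the beta subunit genes, Gabrb2 was at 5.42, 0.492 and 28.9 FPKM (11.6 ± 15.2, SD, n = 3). Gabrb1 was at 2.60, 0.568 and 2.88 FPKM (2.02 ± 1.26, SD, n = 3) and had the smallest range of the 7, with 5.07-fold between its highest and lowest rat. Gabrd, the delta subunit gene, was at 4.73, 0.203 and 27.5 FPKM (10.8 ± 14.6, SD, n = 3) and had the widest range, at 135-fold. For 5 of the 7 genes the SD over the rats was about as large as the mean or larger, and the mean therefore describes no single animal well.

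**Figure D1:**
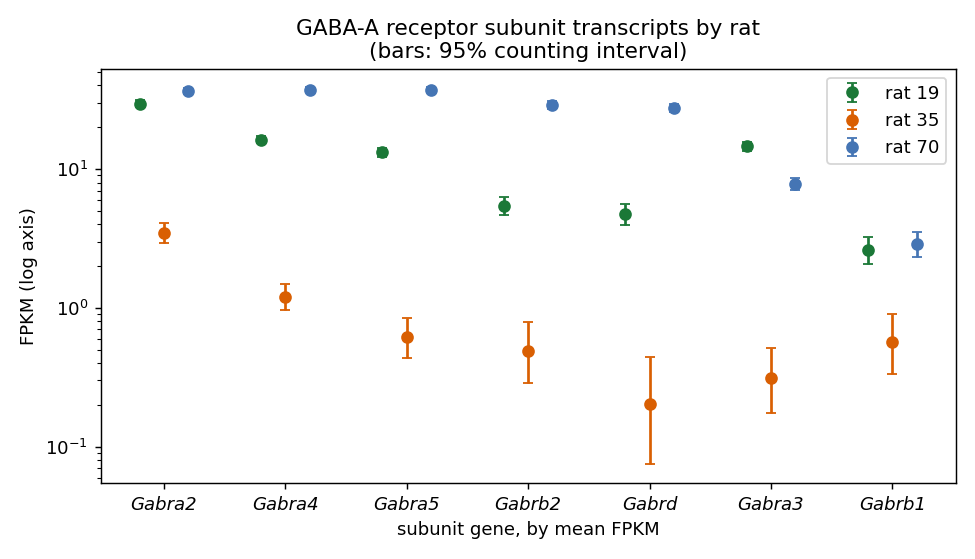
FPKM (log axis) of the 7 subunit genes in each rat, ordered by mean, with 95% counting intervals as bars. Every gene has its lowest point in rat 35, and Gabra3 alone lies higher in rat 19 (14.6) than in rat 70 (7.83).

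In rat 35 the subunit transcripts rested on few fragments, and this limits what can be said of their order there. Gabra2 had 140 fragments, Gabra4 87 and Gabra5 39. Gabrb1, Gabrb2, Gabra3 and Gabrd had 18, 17, 15 and 6. The interval of Gabrd in that rat was 0.0746 to 0.442 FPKM, and it overlapped those of Gabra3 (0.175 to 0.515), Gabrb2 (0.287 to 0.788) and Gabrb1 (0.336 to 0.897). In rats 19 and 70 the same 7 genes had between 78 and 2641 fragments.

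The order of the levels by mean was Gabra2, Gabra4, Gabra5, Gabrb2, Gabrd, Gabra3 and Gabrb1, and it was not shared by the rats. Neighbours in this order were compared on log2(FPKM + 1), where a difference counts as larger than the spread if it had the same sign in all 3 rats and its mean exceeded its SD. This held for 2 of the 6 neighbouring pairs. Gabra4 exceeded Gabra5 by 0.24 ± 0.22 (log2, SD, n = 3), although the 2 genes were at 37.2 FPKM alike in rat 70, and Gabrb2 exceeded Gabrd by 0.18 ± 0.12. Both calls rest on the pseudocount. With 0.1 in place of 1 the differences were 0.39 ± 0.43 and 0.41 ± 0.48, and with none 0.42 ± 0.49 and 0.52 ± 0.66, with the same sign in each rat but no longer larger than their SD. Without rat 35 they were 0.14 and 0.12. At a pseudocount of 1 the other 4 pairs did not differ beyond their spread. Gabra2 exceeded Gabra4 by 0.61 ± 0.56 with the opposite sign in rat 70, and Gabra5 exceeded Gabrb2 by 0.54 ± 0.54 with the same sign in each rat, a pair that did exceed its spread with 0.1 (0.63 ± 0.55) or none (0.66 ± 0.54), and was at 0.23 without rat 19. Gabra3 changed places with its neighbours, with Gabrd minus Gabra3 at -1.44, -0.12 and 1.69 in rats 19, 35 and 70. An exact permutation test that flips signs over the rats, two-sided, gave p from 0.25 to 1 over the 6 pairs, adjusted to 0.5 to 1 by Benjamini-Hochberg, and 0.25 is the smallest p that 3 rats allow. The pairs and their order were set by the means of these same values.

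Within each rat, the share of a subunit is its FPKM as a percentage of the sum of the 7, a measure that does not depend on how the libraries were scaled to each other. The sum was 86.5, 6.87 and 178 FPKM in rats 19, 35 and 70. Gabra4 had the steadiest share of this sum, at 18.9%, 17.4% and 20.9% (19.1% ± 1.76, SD, n = 3). Its level differed 31.1-fold between the same animals.

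The share of Gabra2 was 34.3%, 50.7% and 20.6% (35.2% ± 15.1, SD, n = 3). It was the first-ranked transcript in rats 19 and 35, and the third in rat 70, where Gabra4, Gabra5 and Gabra2 lay within 20.6% and 20.9%. Gabra5 made up 15.3%, 8.94% and 20.9% (15.02% ± 5.97, SD, n = 3), lowest in rat 35. Gabra3 made up 16.8%, 4.54% and 4.40% (8.59% ± 7.15, SD, n = 3), so that rats 35 and 70 were alike in this share and rat 19 stood apart from both. Without rat 19 its mean share was 4.47%. Together the 4 alpha genes took 85.2%, 81.6% and 66.7%.

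Gabrb2 took 6.27%, 7.16% and 16.2% of the sum (9.89% ± 5.51, SD, n = 3) and Gabrd 5.47%, 2.96% and 15.4% (7.95% ± 6.58, SD, n = 3). Both had their largest share in rat 70, and without that rat the mean share of Gabrd was 4.21%. Gabrb1 went the other way, at 3.01%, 8.26% and 1.62% (4.29% ± 3.50, SD, n = 3), with its largest share in rat 35 and a mean of 2.31% without it. In that rat Gabrb1 slightly exceeded Gabrb2 (0.568 against 0.492 FPKM, with overlapping intervals), whereas Gabrb2 was 2.08 times Gabrb1 in rat 19 and 10.05 times in rat 70.

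**Figure D2:**
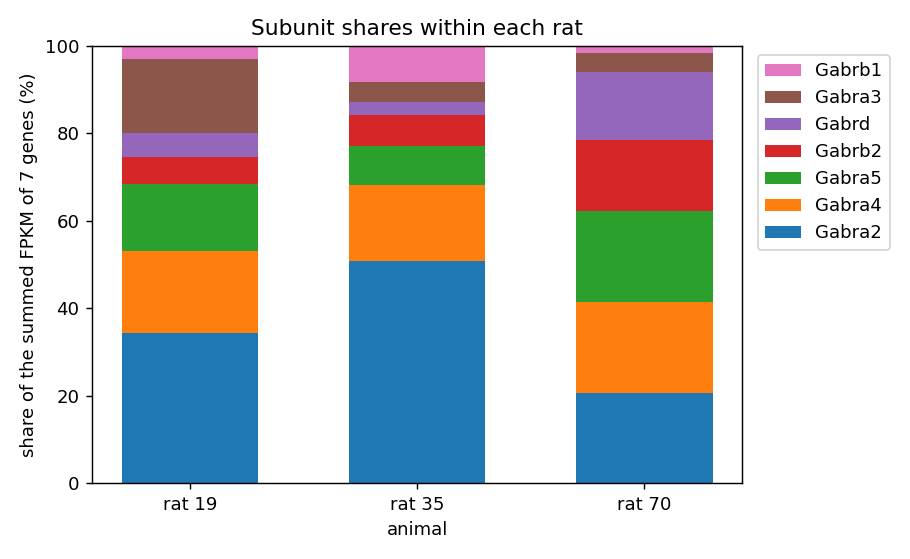
Share of each subunit gene in the summed FPKM of the 7 genes (stacked bars, percent) in each rat. Gabra2 fills 50.7% in rat 35 and 20.6% in rat 70, Gabra3 is widest in rat 19 (16.8%), and Gabrb2 and Gabrd are widest in rat 70 (16.2% and 15.4%).

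These shares leave out the other subunits. Against all 19 subunit genes in the files the 7 genes made up 48.7%, 32.7% and 51.5% of the summed FPKM, which was 178, 21.0 and 346. On that denominator Gabra4 was at 9.18%, 5.69% and 10.8%, a 1.89-fold range against 1.20-fold among the 7, and was no longer the steadiest. Gabra2 was, at 16.7%, 16.6% and 10.6%, a 1.58-fold range. Its large share in rat 35 is therefore a share of the 7 genes and not of all subunit transcripts. Gabrd stood at 2.66%, 0.966% and 7.94% and Gabra3 at 8.20%, 1.48% and 2.26%, with the same rats highest as among the 7 genes. Of the 12 other subunit genes, 4 had a mean of 1 FPKM or more. All 4 had their lowest value in rat 35 (36.5% of all genes) and their highest in rat 70 (29.8%), and rat 19 exceeded rat 35 by 2.50- to 20.7-fold.

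All 7 genes were lowest in rat 35, against 36.5% of the 14134 genes with a mean of 1 FPKM or more. On log2(FPKM + 1) all 7 were over 2-fold lower in rat 35 than in rat 19, where 14.3% of all genes were, and all 7 were over 2-fold lower than in rat 70, where 17.0% were. The median difference over the 7 was -2.77 for rat 35 minus rat 19 and -4.12 for rat 35 minus rat 70, and the medians over all genes were 0.05 and 0.14. No test is possible with 1 animal on each side, and the 7 genes are not replicates. They were chosen with earlier results of these data known, so the shares over all genes only describe them. Gabra3, Gabra5, Gabrb1, Gabrb2 and Gabrd were under 1 FPKM in rat 35 and passed the minimum mean through rats 19 and 70.

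As ratios of FPKM, rat 19 exceeded rat 35 by 46.7-fold for Gabra3 (95% counting interval 28.1 to 83.9), 23.3-fold for Gabrd (10.4 to 64.6), 21.5-fold for Gabra5 (15.6 to 30.4) and 13.6-fold for Gabra4 (10.95 to 17.2). The ratio was 11.013-fold for Gabrb2 (6.69 to 19.3), 8.50-fold for Gabra2 (7.13 to 10.2) and 4.58-fold for Gabrb1 (2.72 to 8.13). The intervals of Gabra3 and Gabra2 did not overlap, so counting error alone does not cover the range of these ratios. Gabra2 and Gabrb1 lay lowest in both comparisons, with rat 70 over rat 35 at 10.5-fold (8.83 to 12.6) and 5.07-fold (3.03 to 8.95).

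Neuronal transcripts in general were low in rat 35, and in bulk tissue fewer cells of a type and less RNA per cell cannot be told apart. The 11 pan-neuronal markers had ratios of rat 19 over rat 35 from 6.75 to 40.9 (median 21.0), and the median of the 7 subunit genes was 13.6. Gabrb1 lay below the range of the markers and Gabra3 above it, and the other 5 lay inside. The counting intervals of Gabrb1 (2.72 to 8.13) and Gabra3 (28.1 to 83.9) both reached into that range, so counting error covers these 2 positions. For rat 70 over rat 35 the markers ran from 9.78 to 61.002 (median 32.1) and the 7 genes had a median of 31.1, with Gabrb1 below and Gabrd, at 135-fold (61.8 to 369), above the range. Here the intervals of both genes lay outside the range, Gabrb1 at 3.03 to 8.95 and Gabrd only just. Their own counting error thus does not cover these positions, while that of the markers was not included. Gabrd had 6 fragments in rat 35.

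Markers of inhibitory neurons had a median ratio of 14.6 for rat 19 over rat 35 (8 genes, 1.28 to 24.0). Astrocyte markers had a median of 2.06 (7 genes, 1.19 to 4.61), and their summed level was 1348, 479 and 1503 FPKM. The 7 microglial markers were all highest in rat 35, with a summed level of 568, 1475 and 455 FPKM, and none of them was at 0. The part of these cells in the subunit ratios was not tested.

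**Figure D3:**
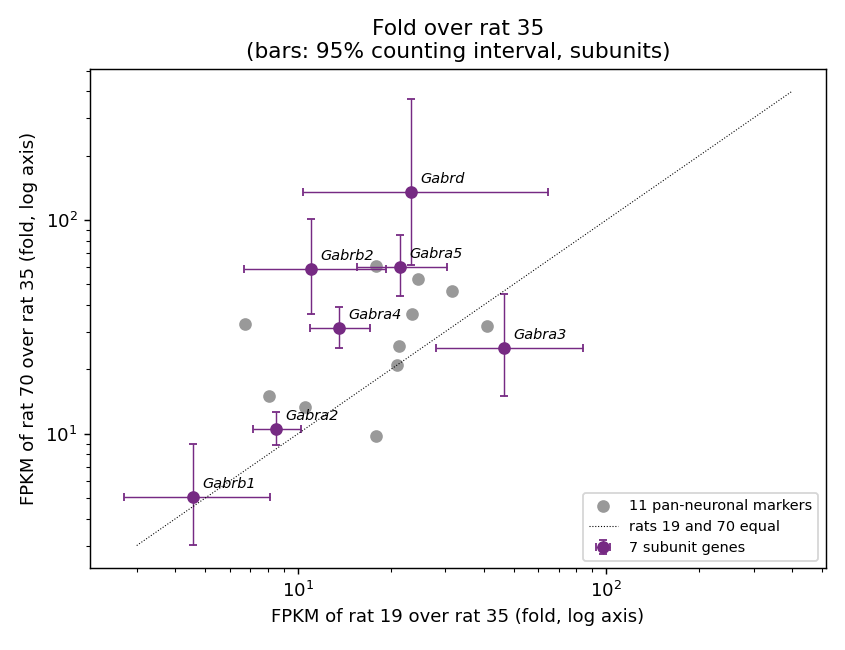
FPKM of rat 70 over rat 35 against rat 19 over rat 35 (fold, log axes) for the 7 subunit genes, with 95% counting intervals, and for 11 pan-neuronal markers (grey). Both axes share rat 35. Gabrb1 lies at the low end (4.58 and 5.07), Gabrd highest on the vertical axis (135), and Gabra3 right of the dotted line of equality.

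Between rats 19 and 70, whose pan-neuronal levels were closer to each other, the subunits parted. Of the 7, 6 were highest in rat 70, against 29.8% of all genes, and 4 of the 7, Gabra4, Gabra5, Gabrb2 and Gabrd, were over 2-fold lower in rat 19 than in rat 70, against 4.84% of all genes. The number over 2-fold higher in rat 19 was 0, against 6.11%. Here too the shares only describe genes that were chosen with earlier results known. Pan-neuronal markers parted as well, with 3 of 11 over 2-fold higher in rat 70 and 0 over 2-fold higher in rat 19. Gabrd was 5.80-fold higher in rat 70 (4.82 to 7.03) and Gabrb2 5.34-fold (4.54 to 6.30), and on log2(FPKM + 1) only 0.375% and 0.432% of all genes had as large a difference in that direction. Gabra5 was 2.82-fold higher (2.60 to 3.06) and Gabra4 2.28-fold (2.13 to 2.45).

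The remaining 3 did not follow. Gabra2 was 1.24-fold higher in rat 70 (1.14 to 1.34), Gabrb1 1.11-fold with an interval that spans equality (0.807 to 1.52), and Gabra3 was at 0.538 of its level in rat 19 (0.472 to 0.612). Pan-neuronal markers had a median ratio of 1.48 for rat 70 over rat 19 (0.547 to 4.83). The neighbours on chromosome 14, Gabra4, Gabra2 and Gabrb1, had different ratios, at 2.28, 1.24 and 1.11. Among the 6 matched promoters, the 3 above 70% G and C belonged to genes over 2-fold higher in rat 70, as did that of Gabrb2, at 44.0%. Promoter G and C was not set against this ratio over all genes, so a link between them was not tested. Gabrb1 and Gabrb2, whose promoters share the NRF1 letters, had ratios of 1.11 and 5.34.

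**Figure D4:**
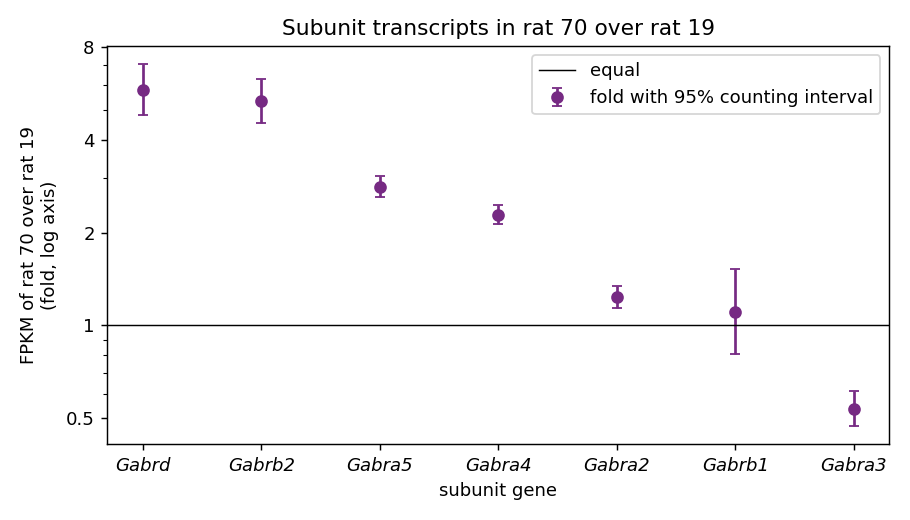
FPKM of rat 70 over rat 19 (fold, log axis) for each subunit gene, with 95% counting intervals as bars and a line at equality. Gabrd and Gabrb2 lie at 5.80 and 5.34, Gabra2 and Gabrb1 near 1, and Gabra3 at 0.538.

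Markers of other brain regions also differed between these 2 rats. The 5 thalamic markers were all highest in rat 70 (29.8% of all genes were), summed at 55.7, 62.1 and 219 FPKM in rats 19, 35 and 70. Most of the sum in rat 70 was Prkcd, a protein kinase gene strong in thalamic relay neurons, at 18.1, 42.7 and 153. Only 2 of the 5, Prkcd and Rora (0.456, 1.80 and 2.77), were over 2-fold higher in rat 70 than in rat 19, against 4.84% of all genes. Tcf7l2 (19.0, 6.85 and 27.3), Lef1 (5.43, 10.2 and 11.2) and Calb2 (12.7, 0.569 and 24.6) differed less. Prkcd, Lef1 and Rora were also higher in rat 35 than in rat 19. Slc17a6, the vesicular glutamate transporter gene of thalamic and other subcortical neurons, was at 1.73, 0.0147 and 28.7 FPKM, while the cortical transcription factor gene Tbr1 was at 14.0, 0.0297 and 3.51. The 7 excitatory markers, which include both genes, had a summed level of 777, 48.0 and 1229, with 4 highest in rat 70 and 3 in rat 19. The 6 genes of the hippocampal and dentate list, summed at 65.5, 25.7 and 77.4, were divided. C1ql2 and Prox1, genes of dentate granule cells, were at 2.17, 0.178 and 28.7 and at 2.33, 1.80 and 10.2, while Wfs1 (56.4, 11.5 and 34.5), Trpc6 (3.95, 10.7 and 3.63) and Spink8 (0.441, 1.18 and listed at 0) were lower in rat 70 than in rat 19. Dsp, low throughout (0.188, 0.457 and 0.358), was higher in rat 70 than in rat 19 and highest in rat 35. The striatal markers, from a region also rich in alpha4 and delta, were lower in rat 70 than in rat 19 for 5 of 6 genes. Their summed level was 102, 23.5 and 57.2. Among them Penk was at 51.1, 6.06 and 6.28 and Drd1 at 6.41, 0.380 and 1.73, and the exception was Ppp1r1b (36.7, 13.7 and 44.6). Over the 5 striatal genes with a mean of 1 FPKM or more, the median of rat 70 minus rat 19 was -0.83 (log2). The labelled tissue of all 3 rats is motor cortex. The part of these markers in the higher Gabrd, Gabra4, Gabra5 and Gabrb2 of rat 70 was not tested.

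Partners of the receptor were compared from lists that held 14 genes of receptor clustering and transport, 8 of GABA synthesis, uptake and breakdown, and 5 of chloride balance, of which 4 reached 1 FPKM. Of the 14 partners, 12 were lowest in rat 35 (36.5% of all genes were). Over 2-fold lower there than in rat 19 were 7 (14.3% of all genes), with a median difference of -1.06 (log2). Iqsec3, a guanine nucleotide exchange factor of inhibitory synapses, was at 16.8, 0.421 and 30.5 FPKM. Gphn, which encodes the scaffold gephyrin, differed far less, at 16.0, 8.90 and 16.7, and so did Nlgn2, the adhesion protein of inhibitory synapses, at 48.9, 28.9 and 47.7. Gabarap, a trafficking and autophagy protein gene with the highest mean of the list, was highest in rat 35 (283, 544 and 195), and Clptm1, which limits the surface delivery of the receptor, was lowest in rat 19 (72.6, 73.4 and 85.4). Dmd, the dystrophin gene, had the lowest mean of the 14 (9.32, 3.06 and 5.32).

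Of the 8 genes of GABA synthesis, uptake and breakdown, 7 were lowest in rat 35 (36.5% of all genes) and over 2-fold lower there than in rat 19 (14.3%). Gad1 and Gad2, the enzymes that make GABA, were at 27.6, 1.78 and 37.4 and at 28.05, 1.97 and 46.0 FPKM. Slc32a1, the vesicular GABA transporter gene, had the lowest mean of the list (11.9, 0.968 and 15.02). Slc6a13, a GABA transporter gene of the meninges, had the opposite order (10.6, 16.5 and 5.31). Slc12a5, the chloride exporter of mature neurons, was at 34.6, 2.96 and 67.6 FPKM, and Slc12a2, a chloride importer found in many cell types, at 25.1, 25.2 and 38.7. Wnk1, a kinase gene upstream of both transporters, was highest in rat 35 (22.2, 30.6 and 18.2), and Stk39, a kinase gene of the same pathway, had the lowest mean of the 4 (15.2, 8.21 and 23.3). The metabotropic GABA-B receptor genes Gabbr1 and Gabbr2 were at 55.9, 13.9 and 72.6 and at 41.1, 1.81 and 84.8, with the same order of the rats as Gabra4.

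The genes whose pattern over the 3 rats was most like the median of the 7 were found by the Euclidean distance of log2(FPKM + 1) deviations from each gene's mean, among 10474 other genes with a mean of 5 FPKM or more. The closest 5 were Snrpn (38.1, 4.84 and 85.8 FPKM), the potassium channel gene Kcnc1 (9.15, 0.627 and 23.9), the potassium channel auxiliary gene Dpp6 (38.2, 5.09 and 96.0), the angiotensinogen gene Agt (44.4, 5.72 and 93.8) and Plch2 (11.03, 0.674 and 24.8), at distances of 0.108 to 0.141. Within a distance of 0.5 lay 152 genes, so that with 3 rats the pattern singles out no small group. The closest gene was Rit2 for Gabra2, Kcnip4 for Gabra4, Rbfox1 for Gabra5, Scrt1 for Gabrb2, Nefm for Gabrd, Arhgef26 for Gabrb1 and LOC100912195 for Gabra3. The number of genes within 0.5 was 827 for Gabrb1 and 15 for Gabrd.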

How the data were processed

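Messenger RNA of motor cortex was sequenced in 3 rats of 1 group. Per the series' design text, the authors counted fragments per gene, normalized the counts and derived FPKM with a Perl script. The deposited FPKM were used unchanged. The submitters' processing notes list HISAT2 2.0.4, StringTie 1.3.0 and the Rnor 6.0 build but no roles. Neither the normalization nor the strand setting is described there.

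Differences between rats used log2(FPKM + 1), which understates those of low genes, over 14134 genes with a mean of 1 FPKM or more. A difference is called past 2-fold. Whole fragments were recovered for 14060 of 14071 genes above 0 in all rats, within 0.005 at the shortest length up to 20000 bp, by a script tested on simulated data. Intervals are exact 95% Poisson for FPKM and exact conditional binomial for ratios. They cover counting error only. Neighbouring levels were compared by exact sign-flip permutation. Python 3.11.15 with scipy 1.17.1 was used.

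The 7 genes and all lists were chosen with earlier results of these data known. Named genes are the 7, the partner genes highest and lowest by mean or against the order of their list, the 5 nearest genes by pattern and the nearest to each of the 7. Iqsec3, Gphn, Nlgn2, Gad1, Gad2, the GABA-B genes, the region markers and the shared promoter runs were chosen after their values were seen. The other subunit genes are given only as a group, and some genes that the rule would name are not reported here. Alternatives were other pseudocounts, scalings, FPKM minima, denominators and reference lists, and leaving out each rat.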

Additional observations from a re-analysis of the deposited data

How the results depend on the processing

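The counts of the 7 genes past 2-fold and lowest in rat 35 kept their value under a pseudocount of 0.1 or none (added after the data were seen). They also kept it under rescaling to a common sum with or without mitochondrial genes and under median-of-ratios scaling. A minimum mean of 5 FPKM removed Gabrb1, and the counts of 7 became 6. Dropping the minimum or leaving out a rat could not change the counts. All 7 genes pass the minimum, and each remaining 2-fold comparison uses the same rats as before. A gene lowest in rat 35 among all rats is also lowest there among those left. With each library brought to 1000000, the median gene moved up by 0.80, 0.85 and 0.96 (log2) in rats 19, 35 and 70. Against all 19 subunit genes the mean shares of Gabra2, Gabra4 and Gabra5 were 14.6%, 8.54% and 7.03%, and by fragments in place of FPKM, which favours long genes, Gabra4 took 28.4%. The log2 ratio of Gabrd to Gabra3 (0.04) was -0.083 with a pseudocount of 0.1, -0.14 with none, and ran from -0.78 (without rat 70) to 0.78 when each rat was left out. The 7 genes were also set against the median level of the pan-neuronal markers within each rat. That median fell on Eno2 in rats 19 and 70 and on Stmn2 in rat 35, so the reference was not the same gene throughout. Relative to it, the 7 genes in rat 35 minus the other rats had a median of 0.56 (log2). This difference was 0.94 against synaptic genes, -0.48 with a pseudocount of 0.1, -0.71 with none, and -0.18 to 0.84 without rat 19 or rat 70. Its sign thus changed with the pseudocount and with the rats used, and 5 of the 7 genes were under 1 FPKM in rat 35. No paired analysis was possible because there is 1 group.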
